A study of Mus musculus with 5 samples.

Results

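A group of 10 genes that set the pace of the G1 phase of the cell cycle was followed in mouse embryonic forebrain with and without the transcription factors Dlx1 and Dlx2. They are the D-type cyclins Ccnd1, Ccnd2 and Ccnd3, the cyclin-dependent kinases Cdk4 and Cdk6, the Cdk inhibitors Cdkn1a, Cdkn1b and Cdkn1c, the retinoblastoma gene Rb1 and its partner E2f1. The 10 genes were chosen with earlier results of these data known. Their probe sets were taken by name, as every probe set whose only gene symbol in the platform annotation is 1 of the 10. This gave 29 probe sets of the 34945 non-control probe sets with 1 gene symbol, and all 10 genes were among the 11063 that were bright enough to be tested. Of the 29 probe sets, 24 passed the intensity filter and 5 did not.

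The 5 arrays measured total RNA from the rostral medial ganglionic eminence (MGE), the ventral forebrain zone in which many cortical interneurons are born. The groups were primary neuronal cultures of Dlx1/2 mutants (1 array), primary neuronal cultures of wild type (WT) (1 array), tissue of Dlx1/2 mutants (2 arrays) and tissue of WT (1 array). The tissue was the ventricular and subventricular zone, the cultures were made from those zones, and all embryos were E15.5. The labels give neither the alleles, the number of embryos pooled nor the days in culture, and they leave unstated whether the pair of mutant tissue arrays had separate embryos as their source. The only WT tissue array, on which every tissue difference rests, is described as WT, but its title gives the genotype just as +/ with nothing after the slash. All p-values therefore rest on the spread between these few arrays, shared in large part over genes of like intensity. That spread may be technical.

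The targeted genes followed the labels. Dlx1 had a deposited signal of 1.26 in mutant culture against 603 in WT culture, and of 2.80 and 0.921 in mutant tissue against 3278 in WT tissue. Dlx2 read 21.7 in mutant culture against 331 in WT culture, and 18.7 and 11.7 in mutant tissue against 1069 in WT tissue. Markers of the MGE were checked as well. Of 9 tested, in a list that holds Dlx1 and Dlx2, 7 were lower and 0 higher in mutant tissue by the test given below. The shares of all genes were 6.70% and 8.59%, and the list's median was −3.24 (log2). The genes named in the rest of this paragraph were chosen after their values were seen, and Lhx6 and Nkx2-1 differed less than that median. Lhx6, a factor of MGE-derived neurons, read 374 in mutant culture, 914 in WT culture, 895 and 924 in mutant tissue and 1321 in WT tissue. Nkx2-1, which specifies the MGE, was among the dimmer genes tested, at 12.6 in mutant culture, 16.2 in WT culture, 60.6 and 78.4 in mutant tissue and 43.3 in WT tissue. Acta2, a smooth muscle actin, read 14086 and 13627 in mutant and WT culture, against 86.4 and 94.9 in mutant tissue and 72.3 in WT tissue.

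D-type cyclins bind and activate Cdk4 and Cdk6, which phosphorylate the retinoblastoma protein and so release E2F factors to switch on genes of DNA replication. The Cip/Kip inhibitors encoded by Cdkn1a (p21), Cdkn1b (p27) and Cdkn1c (p57) bind cyclin and kinase complexes, restrain entry into S phase and promote cell cycle exit. In the embryonic forebrain, Ccnd1 and Ccnd2 are the main cyclins of dividing progenitors, and mice without Ccnd2 are known to have fewer cortical interneurons of some classes. The Cip/Kip genes are known to rise as neural progenitors leave the cycle.

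Promoter windows from RefSeq (build GRCm38.p6, 250 bases before to 50 after a start) were listed for 6 of the 10 genes, as 8 windows. Of these, 3 are shown because their genes moved between the groups and each holds a match to a pattern searched for a cell cycle regulator. The upstream of 2 listed Cdkn1a starts lies at chr17:29090729-29091028 on the plus strand, and the capitals mark the paired core of a p53 response element (CATG, any 6 bases, CATG), at bases 203 to 216 of the window. The Cdk4 window lies at chr10:127063285-127063584 on the plus strand, and the capitals mark 4 copies of the E-box CACGTG, read by Myc family factors. The Cdk6 window lies at chr5:3343643-3343942 on the plus strand. The capitals mark a match to a loose E2F-type pattern, TTTNNCGC, where N is any base, here TA.
Cdkn1a: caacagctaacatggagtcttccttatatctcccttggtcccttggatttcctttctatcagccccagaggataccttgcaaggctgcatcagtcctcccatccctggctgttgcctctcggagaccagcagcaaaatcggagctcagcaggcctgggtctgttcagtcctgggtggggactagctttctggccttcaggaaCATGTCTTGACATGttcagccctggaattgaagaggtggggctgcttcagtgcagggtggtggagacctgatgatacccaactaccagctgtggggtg
Cdk4: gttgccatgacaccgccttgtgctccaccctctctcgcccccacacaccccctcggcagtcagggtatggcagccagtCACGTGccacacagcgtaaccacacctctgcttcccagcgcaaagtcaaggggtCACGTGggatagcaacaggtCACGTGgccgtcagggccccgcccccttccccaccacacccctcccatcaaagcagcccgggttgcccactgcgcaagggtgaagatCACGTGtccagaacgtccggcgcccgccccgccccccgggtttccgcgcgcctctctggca
Cdk6: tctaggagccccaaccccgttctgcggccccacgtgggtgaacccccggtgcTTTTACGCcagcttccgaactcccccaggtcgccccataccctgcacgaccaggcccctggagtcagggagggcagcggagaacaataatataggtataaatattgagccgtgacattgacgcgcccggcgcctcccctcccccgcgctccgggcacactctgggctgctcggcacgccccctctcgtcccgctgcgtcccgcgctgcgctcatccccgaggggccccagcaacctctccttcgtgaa
Motifs were searched on both strands, and the p53 core and the E-box were chosen after the sequences had been read. The p53 core was in 1 of the 8 windows and in 0.712% of the 32851 windows listed for all mouse genes. It was not in the window of the other Cdkn1a start (chr17:29093519-29093818). The E-box was in 2 of the 8 windows, those of Cdk4 and Cdk6 (left in lower case for Cdk6), and in 7.15% of all windows. The loose E2F-type pattern was in 1 of the 8 windows and in 5.17% of all windows. A match describes letters only, and no binding was measured.

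In tissue, the 10 genes split between 1 that was higher in mutants, 2 that were lower and 7 that did not pass the test. The inhibitor Cdkn1a rose 1.81-fold, while Ccnd2 was 1.62-fold lower and Ccnd1 1.28-fold lower. A gene passed where its Benjamini-Hochberg adjusted p from limma, over all genes tested, was below 0.05. By the same test 8.59% of all genes were higher and 6.70% lower in mutant tissue, and counts of 1 and 2 among 10 genes are too few to be set apart from these shares. Their median difference was −0.11 (log2, mutant minus WT), beside 0.00 over all genes tested, and 4 of the 10 had an unadjusted p under 0.05. Differences are given on the log2 scale with the standard error (SE) of the fit, and every sentence on a fold refers to the brightest probe set of the gene unless another is named.

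In culture, the mutant and WT arrays lay close together for the brightest probe set of each of the 10 genes. The differences ran between −0.09 (Cdkn1b) and 0.18 (Cdk4 and Cdk6), with 5 genes above 0, 5 below and a median of 0.01, beside 0.01 over all genes tested. Of the 10, 0 differed by 2-fold or more, a size reached by 1.85% of all genes upwards and 1.83% downwards. Over all member probe sets above the filter the range was wider, from −0.53 (Ccnd2) to 0.51 (Cdkn1a), with −0.39 on the dimmer Cdkn1b probe set. The culture difference, 1 array against 1, was not tested on its own. In bulk RNA, fewer cells of a type and less RNA per cell cannot be told apart, here and below.

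**Figure D1:**
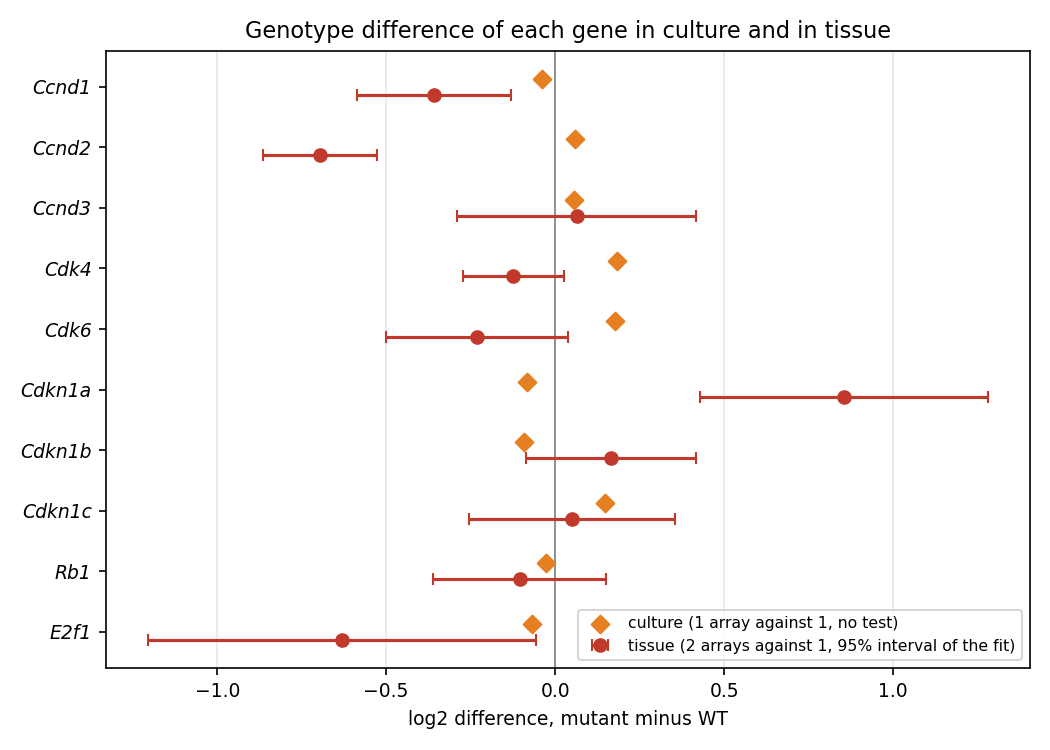
Difference between mutant and WT (log2, horizontal axis) of the brightest probe set of each of the 10 genes. Diamonds give culture (1 array against 1, no test) and circles give tissue (2 arrays against 1) with the 95% interval of the limma fit; Ccnd2 and Ccnd1 lie left of 0 and Cdkn1a right of 0 in tissue, and all culture values lie between −0.09 and 0.18.

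Ccnd2, the cyclin of forebrain progenitors named above, had the smallest adjusted p of the 10 in tissue. Its signal was 2853 and 2975 in mutant tissue against 5071 in WT tissue, and 3303 in mutant culture against 3156 in WT culture. The WT tissue array thus stood above the other 4, which lay close together. In tissue the difference was −0.69 ± 0.08 (SE, adjusted p = 9.9e-05), and in culture it was 0.06. The difference of these differences, culture minus tissue, was tested as an interaction and was 0.75 ± 0.12 (adjusted p = 0.0093). Of its 4 groups, 3 hold 1 array, so only the mutant tissue pair adds a residual degree of freedom. The SE rests mostly on the prior variance shared by genes of like intensity (8.567 prior degrees of freedom against 1). The call was lost in 3 of 6 alternatives. The interaction called 2.21% of all genes higher and 2.27% lower, and Ccnd2 was the only member called.

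All 7 probe sets of Ccnd2 passed the filter and all 7 were lower in both mutant tissue arrays than in WT tissue, with differences between −0.66 and −1.004 on the log2 scale. A separate fit on probe sets called 6 of the 7, where 11.9% of all probe sets were called in either direction. The largest fall, −1.004 ± 0.168, was on a probe set that read 160 and 154 in mutant tissue against 301 in WT tissue. In culture the 7 disagreed: 3 were higher and 4 lower in the mutant, between −0.53 and 0.21. The interaction was called for 3 of the 7, beside 2.62% of all probe sets. The 7 probe sets measure the same arrays and are not replicates. Without an intensity trend in the prior variance, the calls of the brightest probe set were lost in tissue (adjusted p = 0.14) and in the interaction (0.301), and with dim genes also tested they were 0.225 and 0.293. With a gene's probe sets averaged, the interaction of Ccnd2 was 0.63 (adjusted p = 0.16).

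Ccnd1, the cyclin most closely tied to mitogen signals, read 636 and 659 in mutant tissue against 804 in WT tissue. In culture it read 394 in the mutant and 404 in WT. Both mutant tissue arrays were below WT tissue, and both culture arrays were below all 3 tissue arrays. The tissue difference of −0.36 ± 0.10 passed (adjusted p = 0.0377), but the call was lost in 3 of 6 alternatives: with dim genes also tested (0.168), with probe sets averaged (0.078) and without the intensity trend (0.236). On probe sets the call lay elsewhere: the brightest missed (adjusted p = 0.0549), and the dimmest of the 3, at 309 and 313 in mutant tissue against 474 in WT tissue, passed (−0.66 ± 0.13, adjusted p = 0.0104). The interaction of Ccnd1 was 0.32 ± 0.17 and did not pass (adjusted p = 0.328).

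Ccnd3, the cyclin more prominent in other lineages such as lymphoid cells, did not follow the other D cyclins. It read 228 and 213 in mutant tissue against 204 in WT tissue, a difference of 0.06 ± 0.16 with an interval of −0.29 to 0.42. In culture it read 486 in the mutant and 464 in WT. Its other 2 probe sets were below the filter. With all 3 averaged, the difference was 0.73 in tissue (adjusted p = 0.278), −0.54 in culture and −1.27 in the interaction (adjusted p = 0.279).

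**Figure D2:**
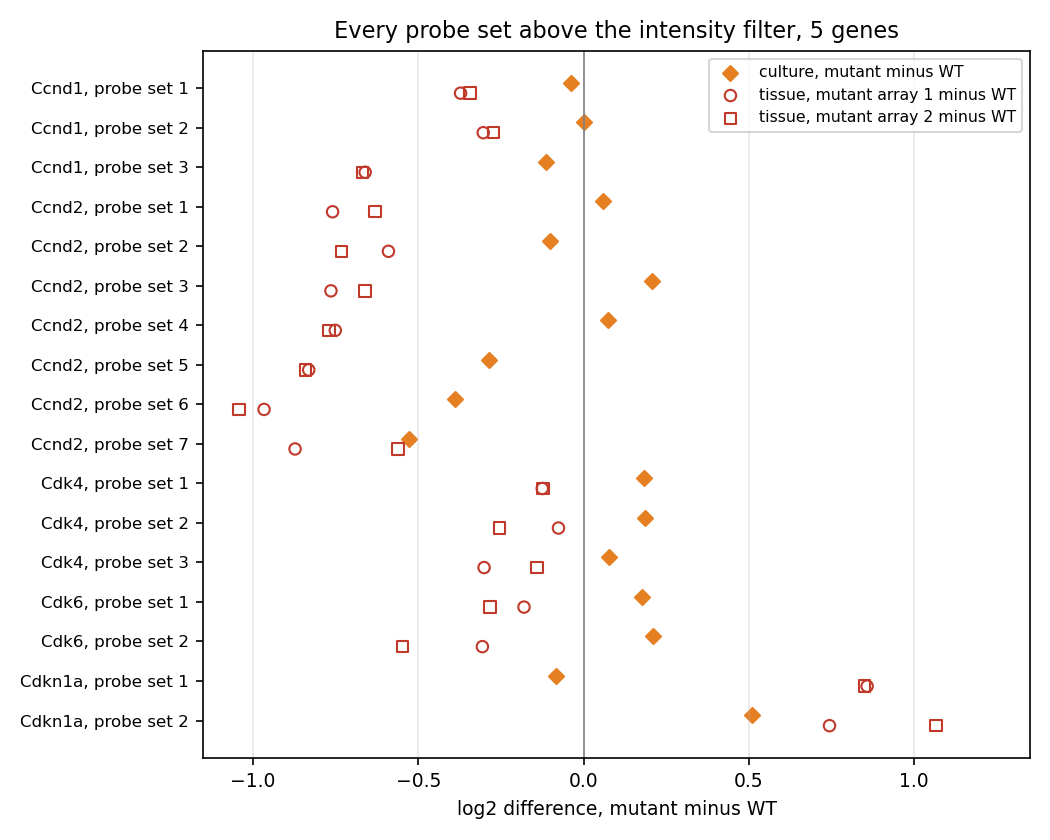
Difference between mutant and WT (log2, horizontal axis) for each probe set above the filter of Ccnd1, Ccnd2, Cdk4, Cdk6 and Cdkn1a, ordered within a gene by brightness. Diamonds are culture, circles and squares the 2 mutant tissue arrays against the WT tissue array; all 7 Ccnd2 probe sets lie left of 0 in both mutant tissue arrays and on both sides of 0 in culture.

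Cdk4, a catalytic partner of the D cyclins, read 3926 and 3785 in mutant tissue against 4520 in WT tissue, and 2518 in mutant culture against 2247 in WT culture. Mutant was thus below WT in tissue and above it in culture on all 3 Cdk4 probe sets. The tissue difference was −0.12 ± 0.07 (interval −0.27 to 0.03) and the interaction 0.31 ± 0.11, and neither passed (adjusted p = 0.259 and 0.146).

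Cdk6, the second D cyclin kinase, read 436 and 412 in mutant tissue against 481 in WT tissue, and 847 in mutant culture against 757 in WT culture. Both probe sets above the filter again lay lower in mutant tissue and higher in mutant culture. The tissue difference was −0.23 ± 0.12 (adjusted p = 0.241) and the interaction 0.41 ± 0.17 (adjusted p = 0.225).

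Among the inhibitors, Cdkn1a was the 1 that differed in tissue. It read 166 and 168 in mutant tissue against 89.3 in WT tissue, and 394 in mutant culture against 418 in WT culture. WT tissue was thus the lowest of the 5 arrays. The tissue difference was 0.85 ± 0.20 (adjusted p = 0.0113), and its call was lost in the same 3 of 6 alternatives, at 0.167 with dim genes also tested, 0.0797 with probe sets averaged and 0.113 without the trend. The interaction was −0.94 ± 0.24 with an adjusted p of 0.0608, which became 0.0265 with the deposited scaling. A second Cdkn1a probe set read 51.8 and 66.2 in mutant tissue against 32.5 in WT tissue, and 102 in mutant culture against 69.3 in WT culture. It was higher in mutants in both preparations, by 0.91 ± 0.35 in tissue (adjusted p = 0.125) and by 0.51 in culture, so the probe sets of Cdkn1a disagreed on the culture difference.

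Cdkn1b, known for its role in the cell cycle exit of neural progenitors, did not pass in tissue. The brighter probe set read 719 and 831 in mutant tissue against 674 in WT tissue, and 501 in mutant culture against 537 in WT culture. The dimmer read 101 and 97.6 in mutant tissue against 111 in WT tissue, and 59.9 in mutant culture against 76.1 in WT culture. The 2 probe sets therefore lay on opposite sides of WT tissue, at 0.16 ± 0.12 and −0.20 ± 0.22.

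Cdkn1c, an imprinted inhibitor, read 307 and 302 in mutant tissue against 286 in WT tissue, and 402 in mutant culture against 364 in WT culture. Its 1 probe set differed by 0.05 ± 0.14 in tissue (interval −0.26 to 0.35).

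Rb1, whose protein holds E2F factors inactive, read 649 and 577 in mutant tissue against 638 in WT tissue, and 459 in mutant culture against 467 in WT culture. On the normalized scale both mutant tissue arrays lay below WT, by 0.01 and 0.20, and the difference was −0.11 ± 0.12 (interval −0.36 to 0.15).

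E2f1, an activator E2F and itself an E2F target, had the widest spread between the mutant tissue arrays of all member probe sets above the filter. It read 83.8 and 135 in mutant tissue against 158 in WT tissue, and 113 in mutant culture against 116 in WT culture. The mutant tissue arrays differed by 0.65 from each other, and the genotype difference of −0.63 ± 0.26 did not pass (adjusted p = 0.133). A second probe set read 78.3 and 85.4 in mutant tissue against 108 in WT tissue, a difference of −0.45 ± 0.24.

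**Figure D3:**
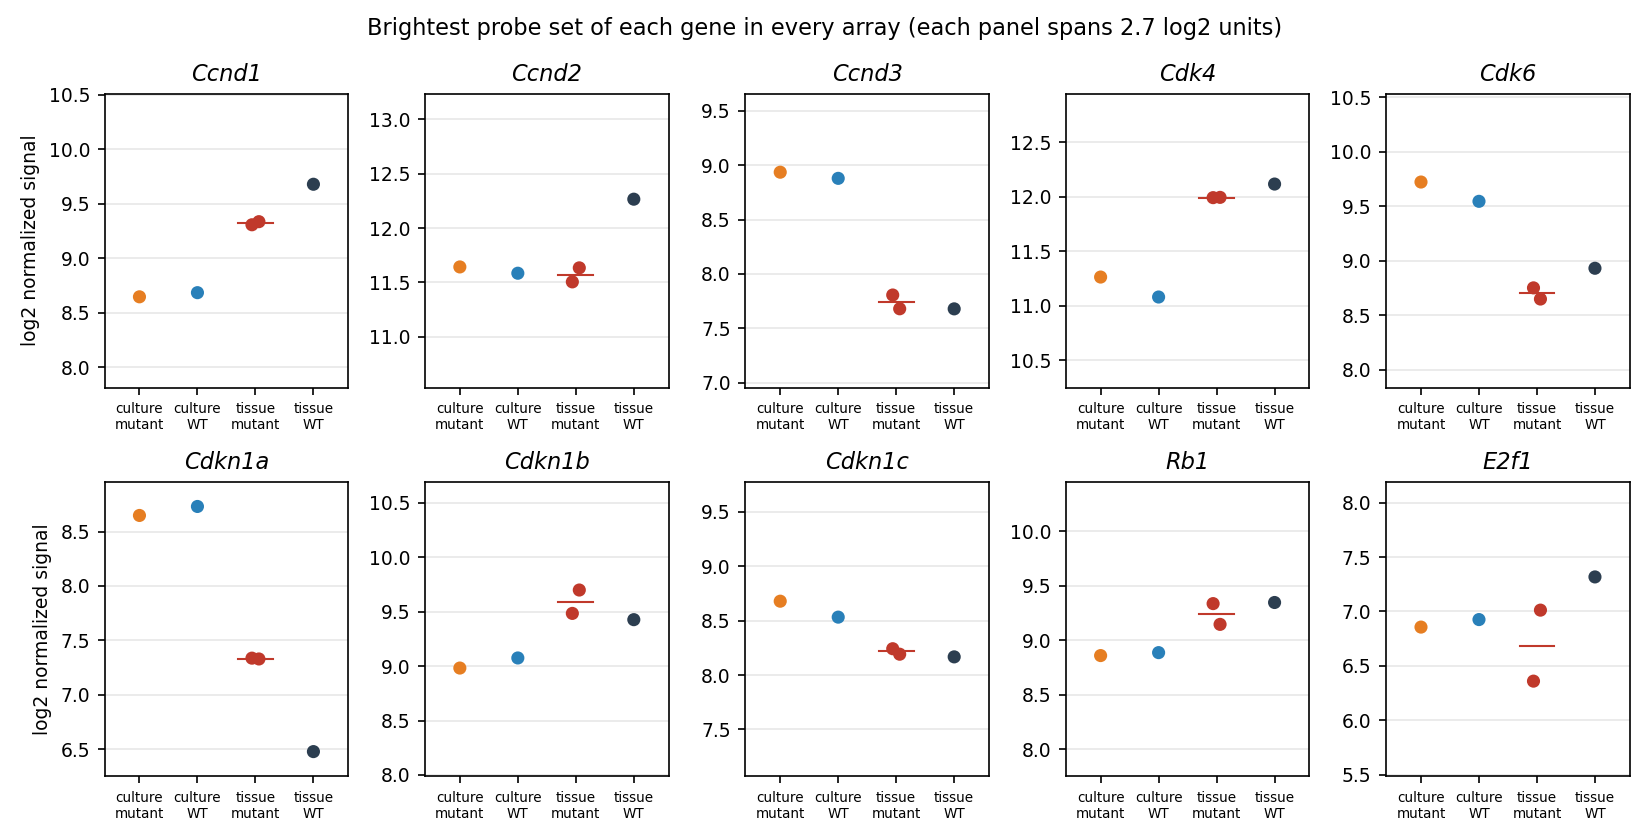
Log2 normalized signal (vertical axis) of the brightest probe set of each gene in the 5 arrays; every panel spans the same log2 range, and levels are not comparable between panels. The bar is the mean of the 2 mutant tissue arrays; WT tissue is the highest array for Ccnd2 and the lowest for Cdkn1a, and the 2 mutant tissue points of E2f1 lie 0.65 apart.

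Over the 24 probe sets above the filter, 19 were lower and 5 higher in both mutant tissue arrays than in WT tissue. Among all probe sets tested, 39.9% were lower and 40.5% higher in both. Many of the 19 share a gene, since 7 belong to Ccnd2. The 5 probe sets below the filter belong to Ccnd3 (2), Cdk6, Rb1 and E2f1, had signals between 0.605 and 37.4 and were not tested.

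With preparation as a term and all 5 arrays in the fit, no member passed: 0 of 10 were called by limma, and 1 (Ccnd2) had an unadjusted p under 0.05. By that fit 0.814% of all genes were higher and 0.253% lower, and 0.690% of probe sets were called. Ccnd2 was at −0.37 ± 0.15 (adjusted p = 0.351), Ccnd1 at −0.22 ± 0.12 (adjusted p = 0.481) and Cdkn1a at 0.45 ± 0.22 (adjusted p = 0.426). This fit shares its arrays with the tissue fit, and its spread includes the disagreement between preparations.

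Between preparations 8 of the 10 genes passed, 4 higher and 4 lower in culture than in tissue. By the same fit 19.6% of all genes were higher and 19.2% lower in culture, and 34.0% of probe sets were called. For these 8 genes both culture arrays lay outside the range of the 3 tissue arrays, above for 4 and below for 4; 29.6% of all genes lay wholly above and 29.2% wholly below. The members' median was −0.16, beside 0.00 over all genes. Values within each genotype rest on 1 culture array each and were not tested.

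Among the D cyclins, Ccnd3 rose and Ccnd1 fell in culture. Ccnd3 was 2.29-fold higher (1.19 ± 0.13, adjusted p = 0.00036), by 1.19 in mutants and 1.20 in WT. Ccnd1 was 1.76-fold lower (−0.81 ± 0.12, adjusted p = 0.0016), by −0.68 in mutants and −0.995 in WT. Ccnd2 did not pass on its brightest probe set (−0.25 ± 0.15, adjusted p = 0.232): its culture array was 0.07 above the tissue mean in mutants and 0.68 below the tissue array in WT. All 7 Ccnd2 probe sets lay lower in culture. The fit on probe sets called 2 of them (−0.59 ± 0.18, adjusted p = 0.0354, and −0.94 ± 0.24, adjusted p = 0.0172), beside 34.0% of all probe sets.

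The D cyclin kinases moved in opposite directions. Cdk6 was 1.80-fold higher in culture (0.85 ± 0.13, adjusted p = 0.0019), by 1.02 in mutants and 0.61 in WT. Cdk4 was 1.82-fold lower (−0.86 ± 0.09, adjusted p = 0.00026), by −0.73 in mutants and −1.04 in WT, and all 3 of its probe sets were called. These are changes within each gene, and no level of Cdk4 was set against Cdk6.

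The inhibitors also split. Cdkn1a showed the largest change of the 10, at 3.28-fold higher in culture (1.72 ± 0.22, adjusted p = 0.00068), by 1.31 in mutants and 2.25 in WT. Its second probe set was 2.05-fold higher (adjusted p = 0.0163). Cdkn1c was 1.34-fold higher (0.42 ± 0.13, adjusted p = 0.0306) and Cdkn1b 1.41-fold lower (−0.50 ± 0.12, adjusted p = 0.015). Rb1 was 1.33-fold lower (−0.42 ± 0.12, adjusted p = 0.0253), and E2f1 was at −0.07 ± 0.25 (adjusted p = 0.847). The second E2f1 probe set was further from 0, at −0.68 ± 0.24, and did not pass (adjusted p = 0.0594). The calls of Cdkn1b, Cdkn1c and Rb1 did not hold with only 1 of the mutant tissue arrays in the fit, at adjusted p between 0.0507 and 0.135, and without the intensity trend (0.0629, 0.0585 and 0.0739). With dim genes also tested, 4 calls were lost, those of Cdkn1a (adjusted p = 0.0598), Cdk6 (0.0557), Cdkn1b (0.10) and Rb1 (0.0814). With probe sets averaged, 3 were lost, those of Ccnd3 (0.0571), Cdk6 (0.0933) and Rb1 (0.275).

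**Figure D4:**
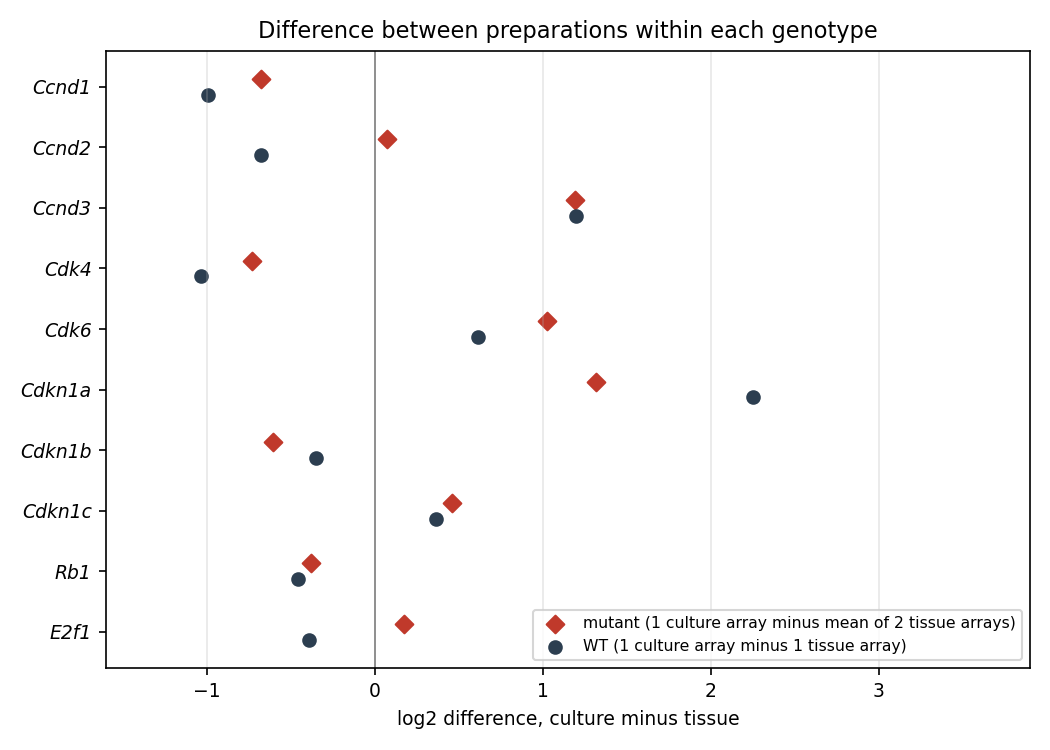
Difference between culture and tissue (log2, horizontal axis) of the brightest probe set of each gene, with diamonds for mutants (1 culture array minus the mean of 2 tissue arrays) and circles for WT (1 array minus 1). Cdkn1a, Ccnd3, Cdk6 and Cdkn1c lie right of 0 in both genotypes, and Ccnd1, Cdk4, Cdkn1b and Rb1 left of 0 in both.

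Marker genes of cell types also differed between the preparations, and their counts stand beside 19.6% of all genes higher and 19.2% lower in culture. Of 6 tested pericyte and mesenchyme markers, 3 were higher and 1 lower in culture, with differences between −2.74 and 8.87. The summed signal of the list was 20750 and 21470 in mutant and WT culture, against 845 and 892 in mutant tissue and 905 in WT tissue. Acta2, whose signals are given above, made up most of the culture sums, so they do not describe the list as a whole. All 4 tested red blood cell markers were lower in culture, where their list summed to 19.0 and 23.6 in mutant and WT, against 9522 and 9472 in mutant tissue and 10530 in WT tissue. Astrocyte markers were higher for 4 of 8 and lower for 2, with sums of 8949 and 6114 in mutant and WT culture, against 4858 and 4691 in mutant tissue and 3192 in WT tissue. Endothelial markers were lower for 3 of 5 (sums of 240 and 182 in mutant and WT culture, against 971 and 1069 in mutant tissue and 1131 in WT tissue). Microglia markers were lower for 3 of 6 (464 and 578 in mutant and WT culture, against 896 and 912 in mutant tissue and 827 in WT tissue). Neural progenitor markers were higher for 5 of 16 and lower for 8, and neuronal maturation markers higher for 4 of 15 and lower for 6. MGE region markers were higher for 1 of 9 and lower for 5, and oligodendrocyte lineage markers higher for 0 of 7 and lower for 4. No marker of these lists was at the floor in all 5 arrays. Their part in the changes of the G1 genes was not tested.

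Other genes of the G1 to S transition, from a list of 42 tested genes, were mostly lower in mutant tissue where they passed. There were 17 lower and 1 higher, with a median of −0.35, beside 6.70% of all genes lower and 8.59% higher. Ccne2, a cyclin E that acts after the D cyclins, was at −1.22 ± 0.14 (adjusted p = 0.00012), and Ccne1 was at −0.90 ± 0.20 (adjusted p = 0.0101). Cdkn3, a phosphatase that acts on Cdks, was at −1.24 ± 0.17 (adjusted p = 0.00051). Skp2, the ubiquitin ligase subunit that marks p27 for destruction, was at −0.93 ± 0.11 (adjusted p = 0.00016), and Skp1 was the 1 that rose (0.23 ± 0.07, adjusted p = 0.0356). The culture median of the list was 0.04. The interaction was called higher for 7 and lower for 0, beside 2.21% and 2.27% of all genes. Among the 7 were Ccne2 (1.37 ± 0.20, adjusted p = 0.0065), Rbl1, an Rb relative (1.04 ± 0.19, adjusted p = 0.0169), and Skp2 (1.03 ± 0.17, adjusted p = 0.0108).

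Targets of E2F that act in S phase were lower in mutant tissue for 29 of 33, with 0 higher and a median of −0.80. Over all genes tested, 6.70% were lower and 8.59% higher. Fen1, a flap nuclease of replication, was at −1.26 ± 0.13. Genes of G2 and mitosis were lower for 31 of 34, with a median of −0.84. In culture the medians of these lists were 0.13 and 0.17. The interaction was called higher for 20 and 24 of their genes, beside 2.21% of all genes. The interaction contains the tissue difference and the same lone WT tissue array. Its counts, here and for the other G1 to S genes, are therefore not separate from the tissue counts. Without the intensity trend, 2 of all genes were called in tissue and 0 in the interaction.

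Among 16 upstream growth regulators of G1, 3 were higher and 1 lower in mutant tissue, beside 8.59% and 6.70% of all genes. These counts, and those of the p53 targets below, are too few to be set apart from those shares. Btg2, an antiproliferative gene of neurogenic progenitors, was at 0.92 ± 0.11 (adjusted p = 0.00019), Mycl at 0.67 ± 0.12 and Foxo3 at 0.53 ± 0.15. Foxo1 was at −1.56 ± 0.27 (adjusted p = 0.0023). Of 15 tested p53 target genes beside Cdkn1a, 3 were higher and 0 lower in mutant tissue with a median of 0.02: the kinase gene Plk3 (1.68 ± 0.38), Sesn1 (0.60 ± 0.14) and Ddit4 (0.55 ± 0.09). In culture against tissue, 4 of these 15 were higher and 4 lower, beside 19.6% and 19.2% of all genes.

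**Figure D5:**
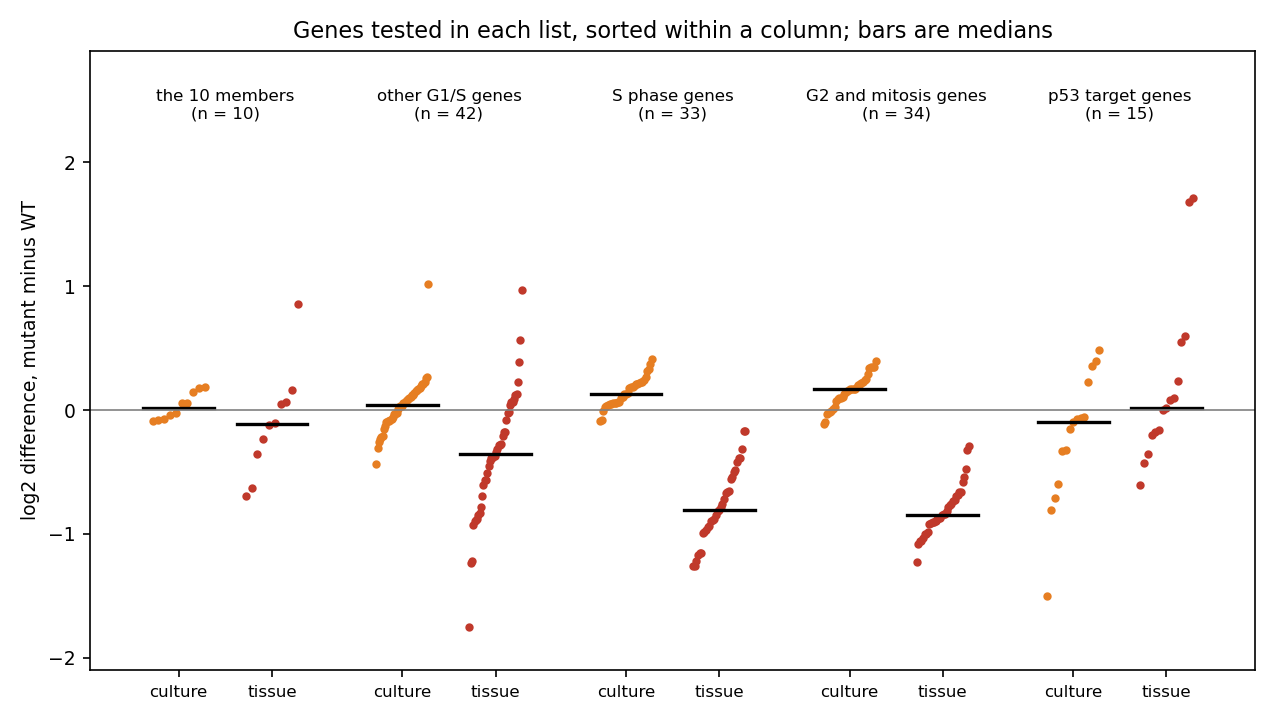
Difference between mutant and WT (log2, vertical axis) in culture and in tissue for the 10 members and 4 gene lists, the last of p53 targets. Each point is 1 tested gene, sorted within a column, with a bar at each median. In tissue the medians are −0.11 for the members, −0.35 for other G1/S genes, −0.80 for S phase genes, −0.84 for G2 and mitosis genes and 0.02 for p53 targets.

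Markers of cell type differed with genotype in tissue as well, and their counts stand beside 8.59% of all genes higher and 6.70% lower. Of 15 neuronal maturation markers 11 were higher and 1 lower in mutant tissue, with summed signals of 21830 and 22440 in mutant tissue against 16240 in WT tissue. Neural progenitor markers were higher for 7 of 16 and lower for 0 (sums of 37190 and 37430 in mutant tissue against 31000 in WT tissue). Only 9 of these 16 lay above 0, called or not, and their median was 0.10, in a range of −0.55 to 3.38. Oligodendrocyte lineage markers were higher for 6 of 7 (4416 and 4390 against 2573 in WT tissue), and astrocyte markers for 5 of 8 (4858 and 4691 against 3192 in WT tissue). MGE region markers, a list that holds Dlx1 and Dlx2 themselves, were lower for 7 of 9 and higher for 0, with a median of −3.24 (sums of 2142 and 2156 in mutant tissue against 9939 in WT tissue). The part of these lists in the values of Ccnd1, Ccnd2 and Cdkn1a was not tested.

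Profiles over the 5 arrays were compared for the 5 members whose range was at least 1 on the log2 scale, as the root mean square difference of centred log2 profiles. Closest to Ccnd1 were Rps6ka6 (0.033) and Zfp407 (0.036), and closest to Ccnd3 were Kctd6 (0.031) and Prxl2c (0.045). Cdk4 was closest to Cep350 (0.034) and Tdp2 (0.035), and Cdk6 to Irak1bp1 (0.019) and Cox17 (0.024). Cdkn1a, which had the widest range at 2.25, had no profile as close, with Crym (0.107) and Ppp1r1a (0.116) nearest. With 5 arrays, close profiles among 11063 genes describe these arrays only.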

How the data were processed

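Intensity values for 45101 probe sets per array were deposited by the authors on a linear scale, scaled, as the values show, so that a mean trimmed by 2% per end came to 150.001 in each array. The processing software was not given in the sources used here. Array medians ran between 26.2 and 29.8, so arrays were quantile normalized, floored at the pooled 20th percentile (a signal of 5.15) and put on the log2 scale. Deposited signals are printed as such, and differences come from the normalized values. The brightest probe set stood for each gene, and genes above the pooled median (a signal of 27.8) were tested. The tests were limma fits (limma 3.58.1, R 4.3.3) whose prior variance followed intensity, with Benjamini-Hochberg adjustment over all genes, on 3 tissue arrays (1 residual degree of freedom) or all 5. The prior variance had 10.89 degrees of freedom in the tissue fit, 5.953 in the fit across both preparations and 8.567 in the interaction. The SE of a gene is thus mostly not its own spread. A lone array was assumed to vary like the mutant tissue pair. A test on simulated data preceded the fits. Probe sets were named from the platform annotation, and 34754 matched RefSeq by Entrez identifier.

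The members and lists were chosen with earlier results of these data known. All members are named; of each list, up to 4 genes a direction with the largest difference among those past the threshold in the tissue, joint or interaction fit could be named, and some of these are given. Protein sequences were not used here. The alternatives tried were scaling, floor, log offset, filter, probe set rule, variance trend and leaving out a mutant tissue array.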

Additional observations from a re-analysis of the deposited data

Results flagged for a closer look

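The genotype difference of Ccnd2 in culture minus that in tissue was 0.75 ± 0.12 (log2, limma adjusted p = 0.0093, between 0.0036 and 0.301 over 6 alternatives). It was singled out because the difference between the preparations was itself tested and passed. The mutant minus WT difference was 0.06 in culture (1 array against 1) and −0.69 in tissue (2 arrays against 1, both lower).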

How the results depend on the processing

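Of 280 tested member values under the alternatives, 243 kept direction and side of the threshold, 27 lost a call, 1 gained one and 9 changed sign. Of 80 without a test, 5 changed sign: Ccnd2 (−0.14), Ccnd3 (−0.54) and Cdkn1a (0.21) in culture with probe sets averaged, and Ccnd3 (0.056) and Rb1 (−0.017) in the interaction without a mutant tissue array. With no filter on dim genes, no intensity trend or probe sets averaged, the tissue calls were 389, 2 and 489 genes in place of 1691 and 0, 0 and 1 members in place of 3. Across both preparations they were 0, 4 and 35 genes in place of 118, and 33 or 39 without a mutant tissue array. For culture minus tissue, 1894 genes were called without the filter in place of 4297, and between 2834 and 2925 without a mutant tissue array. Members called there were 4 without the filter, 5 without the trend, 5 with probe sets averaged and 5 without either mutant tissue array, in place of 8. For the interaction, 0 genes were called without the trend and 4 with probe sets averaged, in place of 496. Members called there were 0 under each of these and without the filter, and 2 with the deposited scaling, in place of 1. At least 2-fold in culture were 226 genes with log2(signal + 16), in place of 407. Among tested values with probe sets averaged the sign changed for Cdkn1b in tissue (−0.018) and across both (−0.11), for Rb1 in tissue (0.21), across both (0.11) and in the interaction (−0.22), and for Cdk4 across both (−0.033, and −0.061 with the deposited scaling). Without a mutant tissue array, Cdkn1b across both lay between −0.018 and 0.090, and E2f1 in culture minus tissue between −0.27 and 0.052. The causes were not tested. Leaving out a mutant tissue array leaves no test in tissue or in the interaction. No paired analysis was possible because the labels give the groups no shared replicate numbers. The number of arrays limits every value.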
